A study of Arabidopsis thaliana with 9 samples.

Results

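The 9 genes described here encode transporters that carry iron into chloroplasts and mitochondria or move iron and its carrier citrate out of cells and compartments. They were chosen by locus from their known roles and by no cutoff on their levels, but earlier results of these data were known. They are PIC1, MFL1 and NAP14 of the chloroplast, and MIT1 and MIT2 of the mitochondrial inner membrane. The others are the ferroportins FPN1, FPN2 and FPN3, and the citrate effluxer FRD3. Together all 9 have 20 of the 55442 transcripts and are 9 of the 34262 genes in the tables. RNA-seq was carried out on shoots of wild type Arabidopsis thaliana (accession Col-0), with 9 samples in 3 conditions of 3 each. Iron was supplied to every plant during an initial 14 days of growth. In the -Fe group it was then withheld for 3 days and for 24 hours more, in the Fe resupply group it was withheld for 3 days and given back for the final 24 hours, and in the +Fe group it was present throughout, with the same transfers between plates.

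Most of the iron of a leaf cell is used in chloroplasts, for photosynthetic electron transport, and in mitochondria, for respiration and the assembly of iron-sulfur clusters and heme. Iron must cross the inner membrane of each organelle through dedicated carriers. Export works at several borders: FPN1 and FPN2 move iron out of the cytosol, and FPN3 moves it out of mitochondria and plastids. FRD3 releases citrate into the apoplast, where the citrate keeps iron soluble on its way through the xylem.

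The tables hold, for each pair of conditions, 1 average level per transcript over the libraries of both conditions, in CPM (counts scaled to the size of each library) on a log2 scale. The mean level of each condition was solved from the 3 averages, so each level below is a pooled value with no replicate spread. No difference was tested here: values per sample were not used, and the authors' own test results in the tables were set aside. Transcripts found in 1 condition only, whose level 2 tables give separately, read alike within 0.0482 on the log2 scale (244 to 249 transcripts for each condition). Differences smaller than this are not resolved, and larger ones need not be. A solved ratio draws on 3 tables, and the gap holds no spread between samples. Rescaling the tables to bring these readings together moved -Fe over Fe resupply from 0.26 to 0.19 for MIT1 and from 0.45 to 0.38 for MIT2. The steps of the lowest levels show 6 libraries per condition in the authors' fits, where the labels give 3 samples, with totals of 987079 to 1267194 units. Whether a unit is 1 read or a length-scaled value is not stated, so no counting interval is given. Genes are grouped below into classes of CPM to compare their ranges, and are not otherwise ranked by level. The -Fe label held on known genes: bHLH38, bHLH39, bHLH100 and BTS, which mark iron deficiency, summed to 1340 CPM in -Fe shoots. The sums were 190 CPM in Fe resupply and 222 CPM in +Fe shoots, of which BTS gave 170 and 208 CPM. These sums do not tell Fe resupply from +Fe shoots. The 5 shoot markers, all of photosynthesis, lay between 4390 and 12500 CPM in every condition. The 6 root markers summed to 7.07 CPM in -Fe, 1.13 in Fe resupply and 1.71 CPM in +Fe shoots. Most of the -Fe sum was IRT1, at 3.88 CPM, and FRO2, at 2.72 CPM. The paper describes these 2 genes as raised in roots by iron deficiency. It also lists FRO2 among known iron genes where it discusses transcripts raised in both shoots and roots. The log2 ratio of IRT1 was 1.32 for -Fe over +Fe, and FRO2 was at 0.0249 CPM in +Fe shoots. COBL9 was at 0.469 CPM in -Fe, 0 in Fe resupply and 0.429 CPM in +Fe shoots. The other 3 (EXPA7, CASP1 and NRT2.1) were at 0 throughout. Whether the sums reflect root material was not tested.

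The transporter genes were near level or differed by up to about the 1.5-fold that many genes of their level reach. Of the 9 genes, 7 had a mean level of at least 1 CPM, and FPN2 and FRD3 were at 0 in every table. No transporter differed by 1.5-fold between -Fe and +Fe shoots (0 of 7), where 18.4% of the 18003 genes with at least 1 CPM did. One did so between Fe resupply and +Fe shoots (1 of 7, MIT2), where 16.3% of all genes did, and none between -Fe and Fe resupply shoots (0 of 7), where 20.2% did. These shares are carried by low genes. Above 20 CPM, where 3 of the 7 transporters lie, they were 5.35%, 2.52% and 6.54%, so counts of 0 or 1 among 7 do not set the transporters apart from other genes. Ratios were taken after adding 0.5 CPM to both levels, and each comparison shares a condition with the other ones. The median log2 ratio of the 7 genes was 0.06 for -Fe over +Fe, -0.12 for Fe resupply over +Fe and 0.10 for -Fe over Fe resupply, beside medians over all genes of 0.00, -0.06 and 0.07.

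**Figure D1:**
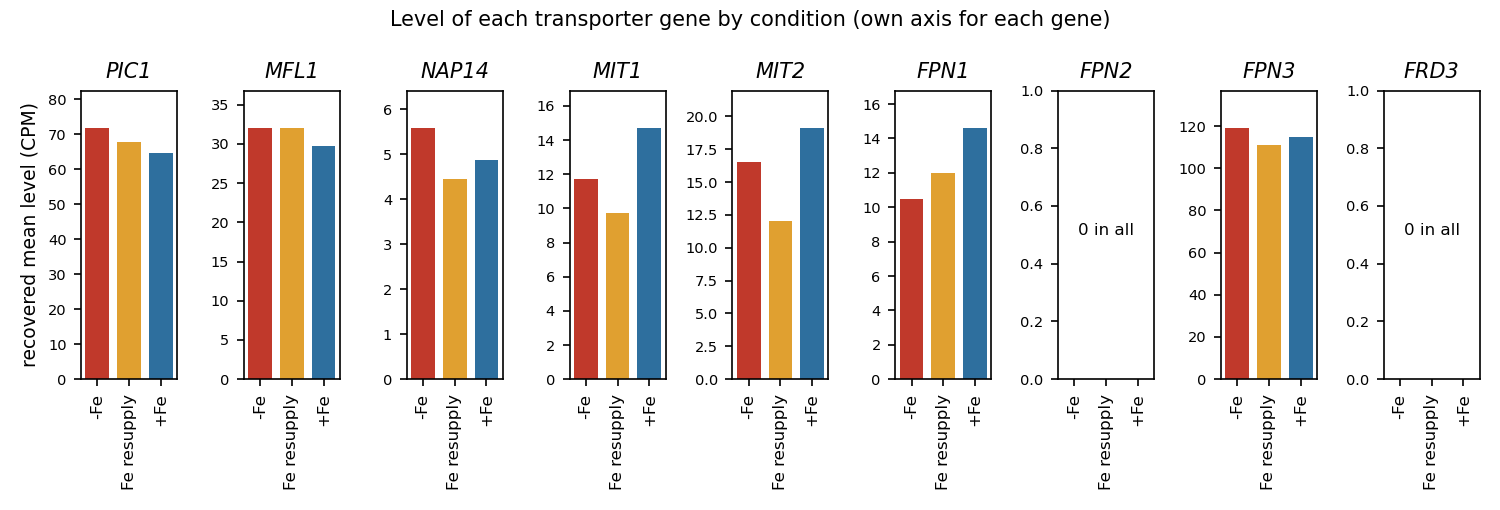
Recovered mean level in CPM (y axis, starting at 0 and set separately for each gene) of the 9 transporter genes in -Fe, Fe resupply and +Fe shoots; each bar is 1 pooled value without an error. PIC1, MFL1 and FPN3 were nearly level, MIT1, MIT2 and FPN1 were highest in +Fe, and FPN2 and FRD3 had no level in any condition.

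Of the chloroplast importers, PIC1 and MFL1 were nearly level. PIC1 (AT2G15290, chromosome 2, 6642300 to 6644055, minus strand, TAIR10.1) encodes a permease of the inner envelope that has been linked both to iron uptake and to protein import. Its level was 71.8 CPM in -Fe, 67.7 CPM in Fe resupply and 64.8 CPM in +Fe shoots. The log2 ratio of -Fe over +Fe was 0.15. The highest and lowest conditions thus lay 1.11-fold apart, a smaller range than in most genes of like level: only 22.4% of the 7902 genes with over 20 CPM varied less. PIC1 shares 54 annotated bases with AT2G15280 on the opposite strand, which had 8.48, 7.67 and 10.7 CPM in -Fe, Fe resupply and +Fe shoots.

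MFL1 (AT5G42130, chromosome 5, 16835233 to 16836895, minus strand) is a mitochondrial carrier family protein that resembles mitoferrins but sits in the chloroplast. It had 32.0 CPM in -Fe, 32.0 CPM in Fe resupply and 29.7 CPM in +Fe shoots. The log2 ratios were 0.11 for -Fe over +Fe and 0.11 for Fe resupply over +Fe. No difference showed between -Fe and Fe resupply shoots.

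NAP14 (AT5G14100, chromosome 5, 4549438 to 4551843, minus strand), a soluble ABC protein proposed to act in chloroplast iron transport, had a low level. It was at 5.58 CPM in -Fe, 4.45 CPM in Fe resupply and 4.87 CPM in +Fe shoots, a log2 ratio of 0.18 for -Fe over +Fe and of 0.30 for -Fe over Fe resupply. Low genes vary more in these tables, and among the 3970 genes between 1 and 5 CPM the median gene had a 1.79-fold range over the conditions, against 1.23-fold for NAP14. With a mean of 4.97 CPM, however, NAP14 lay at the top edge of this class. Between 5 and 20 CPM the median range was 1.38-fold. A stretch of 238 bases of NAP14 is also annotated as AT5G14090 on the other strand, which had 3.78 CPM in -Fe, 5.66 CPM in Fe resupply and 5.4 CPM in +Fe shoots. The labels name the library kit without calling it directional, and whether strand was used in counting is not stated, so the part of the shared stretch in the NAP14 level was not tested.

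**Figure D2:**
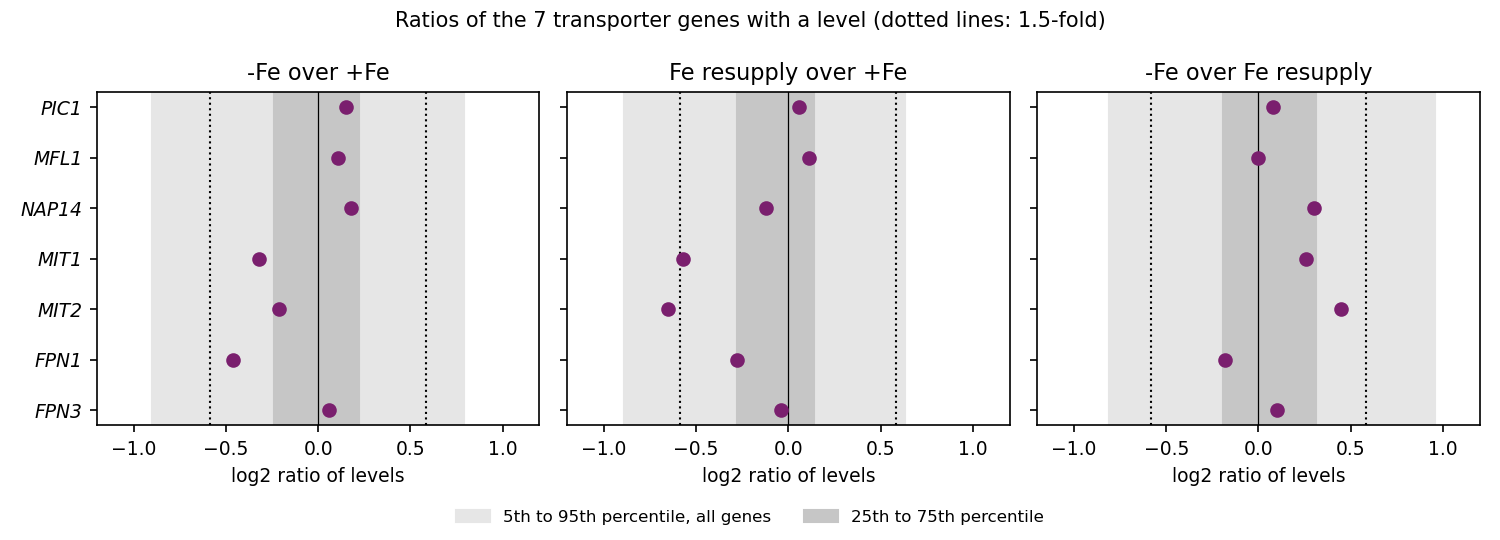
Log2 ratios (x axis) of the 7 transporter genes with a level in the 3 comparisons, each point 1 gene, over the spread of all 18003 genes (light gray, the central 90% of genes; dark gray, the central 50%). MIT2 alone lies past the dotted 1.5-fold line, in Fe resupply over +Fe at -0.65, with MIT1 at -0.57 just inside it.

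The mitochondrial importers MIT1 and MIT2 had their lowest levels in Fe resupply shoots. They are the Arabidopsis mitoferrins, which carry iron across the inner mitochondrial membrane and can stand in for each other. MIT1 (AT2G30160, chromosome 2, 12877799 to 12879661, plus strand) was at 11.7 CPM in -Fe, 9.73 CPM in Fe resupply and 14.7 CPM in +Fe shoots. MIT2 (AT1G07030, chromosome 1, 2158413 to 2160818, minus strand) was at 16.5 CPM in -Fe, 12.0 CPM in Fe resupply and 19.1 CPM in +Fe shoots. Both genes thus had the same order of conditions, with +Fe highest and Fe resupply lowest. NAP14 and FPN3 were also lowest in Fe resupply, and NRAMP3, described below, had the same full order. How many of all genes have this order was not counted.

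For both MIT genes, Fe resupply over +Fe was the comparison with the largest ratio. It was -0.65 on the log2 scale for MIT2, a 1.57-fold lower level in Fe resupply, and -0.57 for MIT1, a 1.49-fold lower level. The 1.5-fold line lies at 0.58, so the genes fall on either side of it by a small margin, and with nothing added to the levels MIT1 also passed, at -0.60. For -Fe over +Fe the log2 ratios were smaller, -0.32 for MIT1 and -0.21 for MIT2. For -Fe over Fe resupply they were 0.26 for MIT1 and 0.45 for MIT2. Ranges of this size were common at this level: 63.4% of the 6131 genes between 5 and 20 CPM varied less than MIT1 over the conditions and 70.7% varied less than MIT2, and 16.4% of them lay past 1.5-fold in Fe resupply over +Fe. Above 20 CPM, 2.52% of genes did.

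**Figure D3:**
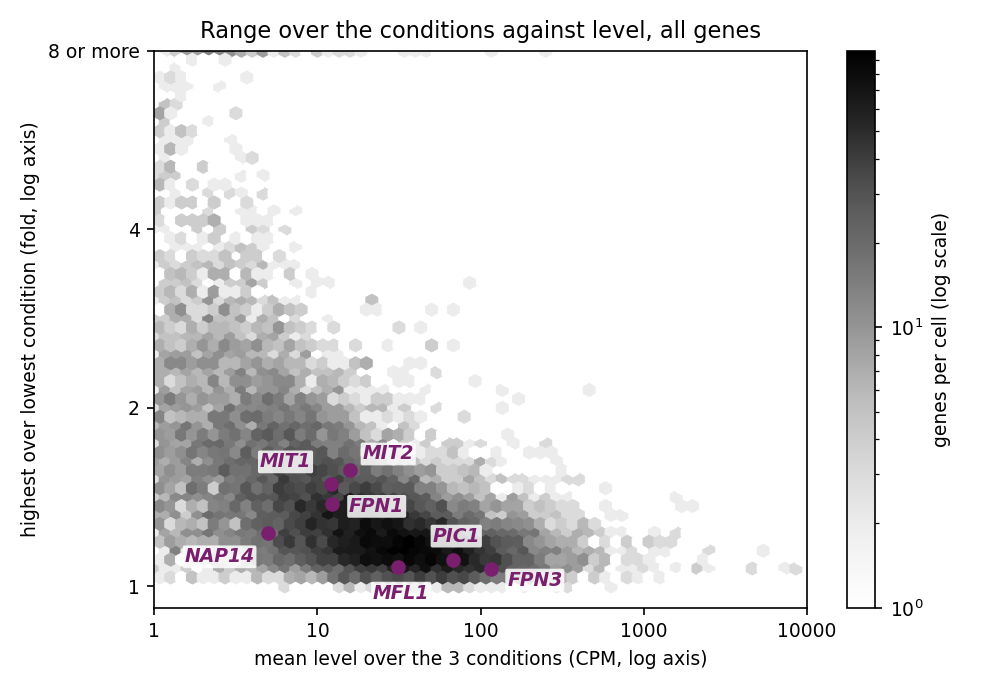
Highest over lowest condition (fold after adding 0.5 CPM, y axis, log scale) against the mean level over the conditions (CPM, x axis, log scale) for the 18003 genes with at least 1 CPM, shaded by the number of genes, with the 7 transporter genes as purple points. Low genes spread more widely, and the transporters lie within the bulk of genes of like level.

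Among the ferroportins, only FPN1 and FPN3 were detected. FPN3 (AT5G26820, chromosome 5, 9433569 to 9437158, plus strand), which exports iron from mitochondria and plastids, was at 119 CPM in -Fe, 111 CPM in Fe resupply and 115 CPM in +Fe shoots. Its log2 ratios were 0.06 for -Fe over +Fe and -0.04 for Fe resupply over +Fe. The second is below what the levels resolve, and the first is too small to be read as a difference. Its range of 1.07-fold was narrower than that of most genes above 20 CPM, 11.6% of which varied less.

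FPN2 (AT5G03570, chromosome 5, 903470 to 906833, plus strand) encodes a vacuolar transporter known from roots, and FRD3 (AT3G08040, chromosome 3, 2566196 to 2569700, minus strand) is known to act mainly in the root stele and in reproductive tissue. All 4 transcripts of FPN2 and both transcripts of FRD3 were at the lowest value of every table, the value of a transcript with nothing assigned in any library. Their levels are therefore listed at 0 in -Fe, Fe resupply and +Fe shoots, and no ratio is given. The smallest step in the tables, 1 unit in 1 library, was worth 0.146 to 0.148 CPM in the mean of a condition.

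FPN1 (AT2G38460, chromosome 2, 16103164 to 16106208, plus strand), which exports iron across the plasma membrane and has been placed in xylem loading, was at 10.5 CPM in -Fe, 12.0 CPM in Fe resupply and 14.6 CPM in +Fe shoots. The log2 ratio was -0.46 for -Fe over +Fe, and it was -0.21 with the lowest level of the tables kept in and -0.31 with the leading transcript alone. For Fe resupply over +Fe it was -0.28, but its direction depended on the setting: it was 0.44 when solved on the log2 scale and -1.73 with the leading transcript alone. A range of 1.38-fold put it near the median of genes between 5 and 20 CPM, of which 50.2% varied less. FPN1 is the one transporter here with several detected transcripts, and the transcript that carried most of its level differed between the conditions.

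The 8 annotated FPN1 transcripts fall into a pair, FPN1.2 and FPN1.5, that keep an intron of 103 bases (chromosome 2, 16104260 to 16104362) and 6 that splice it out. The spliced forms are annotated with a coding start at 16103603 and 525 codons including the stop. The retaining forms are annotated with a later coding start at 16104292, inside the intron, and 380 codons. Both kinds end at the same stop and share 1069 coding bases, with 506 found only in the spliced forms and 71 only in the retaining ones. The 2 stretches that set the forms apart are shown because reads across them decide which form is counted. In the first, from 15 bases before the intron to 15 bases into it, the capitals mark the GT that opens the intron and the AA after it, since the TAA that starts at intron base 2 is a stop codon in the frame of the earlier start. In the second, from the later coding start to 15 bases past the intron, the capitals mark the ATG and the AG that closes the intron.
FPN1 intron start, chr2:16104245-16104274, plus strand: gatcgaacgagactgGTAAatgtctagact
FPN1 later coding start to intron end, chr2:16104292-16104377, plus strand: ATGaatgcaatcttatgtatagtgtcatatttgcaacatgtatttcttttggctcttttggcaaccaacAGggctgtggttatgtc

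Intron-retaining transcripts made up 86.1% of the FPN1 level in -Fe, 29.2% in Fe resupply and 83.8% in +Fe shoots. The share in Fe resupply shoots was thus the lowest. With the lowest level of each table kept in, the shares were 50.8% in -Fe, 26.9% in Fe resupply and 55.0% in +Fe shoots, in which the gap is smaller and Fe resupply is again the lowest. FPN1.2 was at 9.0 CPM in -Fe, 3.05 CPM in Fe resupply and 11.3 CPM in +Fe shoots. FPN1.3, which matches FPN1.2 but for the spliced intron, was at 1.44 CPM in -Fe, 7.34 CPM in Fe resupply and 1.24 CPM in +Fe shoots. In Fe resupply shoots FPN1.2 was thus at its lowest and FPN1.3 at its highest, while the gene total lay between those of -Fe and +Fe shoots.

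The minor FPN1 transcripts were low. The spliced FPN1.1 was at 0.986 CPM in Fe resupply and 1.13 CPM in +Fe shoots, and the retaining FPN1.5 was at 0.437 CPM in Fe resupply and 0.98 CPM in +Fe shoots. In -Fe shoots both were below the smallest step. FPN1.8 had 0.143 CPM in Fe resupply shoots, about 1 unit in 1 library, and FPN1.4, FPN1.6 and FPN1.7 were at 0 throughout.

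The share of FPN1.2 alone, the leading transcript, was 86.0% in -Fe, 25.5% in Fe resupply and 77.2% in +Fe shoots. A difference of at least 50 percentage points, a line set after these values were seen, is given only as a description over the 6445 genes with at least 2 transcripts and 5 CPM in every condition, and nothing about FPN1 is read from it. It was found in 1.38% of the genes for -Fe minus +Fe, where FPN1 differed by 8.8 points. It was found in 1.72% for Fe resupply minus +Fe, where FPN1 differed by -51.6 points, and in 1.78% for -Fe minus Fe resupply, where FPN1 differed by 60.5 points. Among the 2471 such genes with a mean of up to 20 CPM, the shares were 2.23%, 2.83% and 2.39%. A gene counted here needed no level in its second transcript. One with 1 detected transcript cannot reach the line, so it can only lower these shares. The transcripts overlap over nearly all of their length, so the division rests on the authors' assignment of reads at the intron, and its spread between samples was not available here. For FPN1.2 alone it also rests on reads at a stretch before the earlier coding start. FPN1.1 and FPN1.5 splice that stretch out, while FPN1.2 and FPN1.3 keep it.

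**Figure D4:**
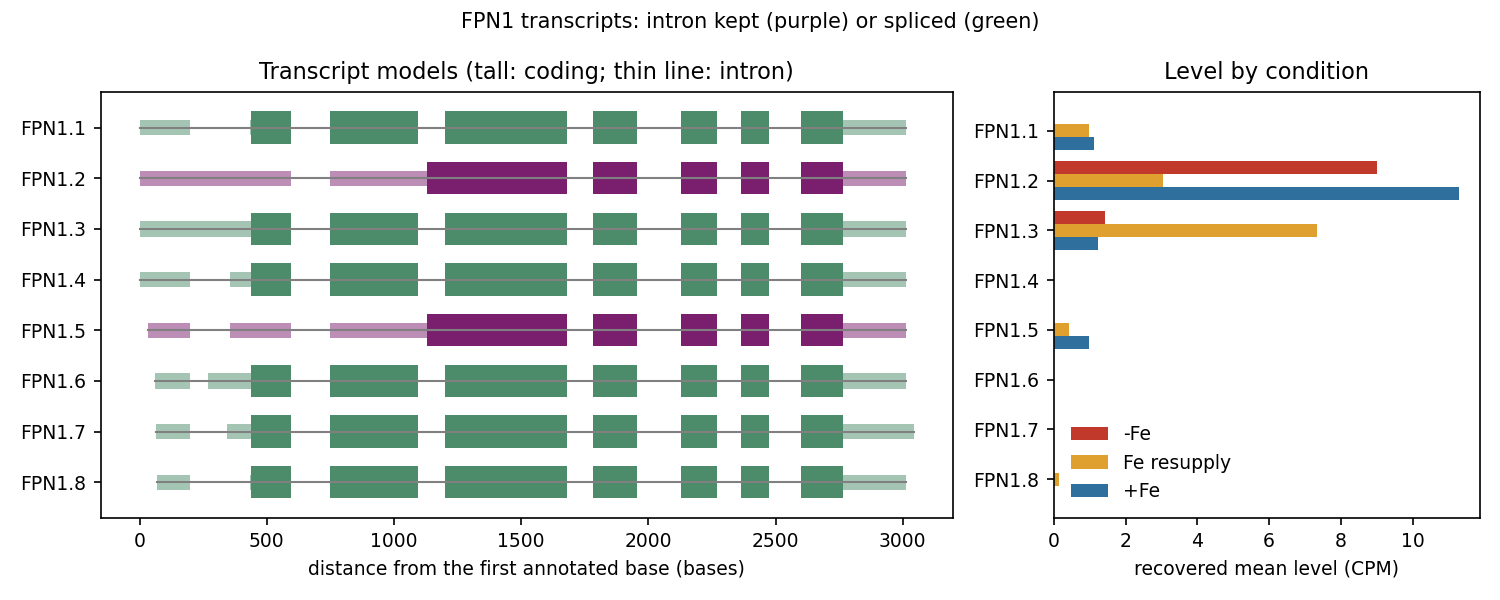
Left, the 8 FPN1 transcript models drawn to scale against distance from the first annotated base (x axis, bases), with tall blocks for coding exons, low blocks for untranslated exons and lines for introns; right, the recovered mean level of each (x axis, CPM) in -Fe, Fe resupply and +Fe shoots, without an error. FPN1.2, which keeps the intron, leads in -Fe and +Fe shoots at 9.0 and 11.3 CPM, and FPN1.3, which splices it, leads in Fe resupply shoots at 7.34 CPM.

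Several other genes of iron handling had larger ratios than any of the transporters; whether the groups of genes differ was not tested. Of 18 such genes, 16 had at least 1 CPM (FER2 and VIT1 were at 0). In -Fe against +Fe shoots 3 were at least 1.5-fold higher, 7 were at least 1.5-fold lower and 6 lay between. Of all 18003 genes, 1508 were higher and 1803 lower by the same fold. FRO8 (log2 ratio -0.58), FH (0.54) and NRAMP3 (-0.53) lay just inside the line. The 3 higher ones were FRO3, a ferric reductase of mitochondria, at 240 CPM in -Fe and 56.9 CPM in +Fe shoots, OPT3, which loads iron into the phloem, at 647 CPM in -Fe and 201 CPM in +Fe shoots, and NRAMP4, which releases iron from the vacuole, at 112 CPM in -Fe and 44.4 CPM in +Fe shoots. The 7 lower ones were the plastid ferritins FER1, FER3 and FER4, the vacuolar importers VTL1, VTL2 and VTL5, which belong to the VIT1-like family, and YSL4, a metal transporter of internal membranes. VTL1, VTL5 and YSL4 were low, with means of 4.51, 2.71 and 3.92 CPM. Between 1 and 5 CPM the median gene had a 1.79-fold range over the conditions, so passing 1.5-fold is common there. FER1 had the largest ratio of the lower ones, with 12.8 CPM in -Fe and 106 CPM in +Fe shoots, a log2 ratio of -3.00.

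In Fe resupply against +Fe shoots, 14 of the 16 lay within 1.5-fold, where 1008 of all 18003 genes were higher and 1929 lower. FER3 was higher, at 43.4 CPM in Fe resupply and 24.7 CPM in +Fe shoots. NRAMP3, which also releases iron from the vacuole, was lower, at 11.0 CPM in Fe resupply and 16.9 CPM in +Fe shoots, a log2 ratio of -0.60 that is close to those of MIT1 and MIT2. In -Fe against Fe resupply shoots 4 of the 16 genes were higher and 8 were lower, beside 2110 higher and 1520 lower of all 18003 genes.

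Genes that act beside the transporters in the same organelle did not share one pattern. In the chloroplast, the envelope reductase FRO7 was at 238 CPM in -Fe, 193 CPM in Fe resupply and 240 CPM in +Fe shoots, with log2 ratios of -0.01 for -Fe over +Fe and -0.31 for Fe resupply over +Fe. In the mitochondrion, FRO8, a second reductase, was at 48.3 CPM in -Fe, 76.2 CPM in Fe resupply and 72.5 CPM in +Fe shoots, opposite in sign to FRO3 in -Fe over +Fe. The iron-sulfur scaffold ISU1 was at 68.3 CPM in -Fe, 70.5 CPM in Fe resupply and 69.9 CPM in +Fe shoots. Frataxin (FH) was at 7.57 CPM in -Fe, 3.89 CPM in Fe resupply and 5.04 CPM in +Fe shoots, a log2 ratio of 0.54 for -Fe over +Fe, opposite in sign to those of MIT1 and MIT2.

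**Figure D5:**
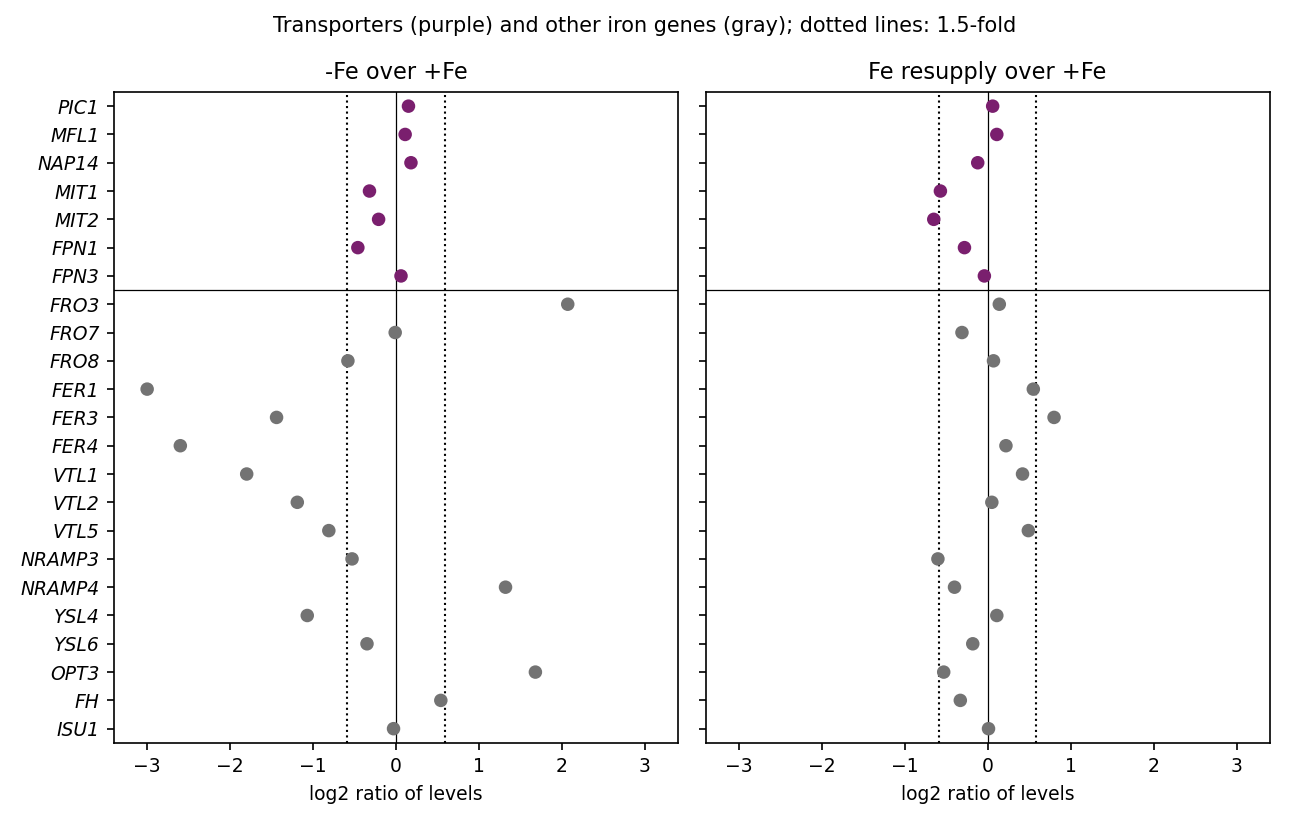
Log2 ratios (x axis) of -Fe over +Fe and of Fe resupply over +Fe for the 7 transporter genes (purple) and the 16 other iron genes with a level (gray), each point 1 gene without an error. In -Fe over +Fe the transporters lie between -0.46 and 0.18, while the others run from -3.00 (FER1) to 2.07 (FRO3).

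The promoters of the 9 genes, taken as 250 bases before to 50 bases after the annotated start, were searched for a pair of motifs bound by basic helix-loop-helix factors. The G-box, CACGTG, was in none of the 9, and in 7.68% of 27443 promoters of protein-coding genes. The E-box, CANNTG, which includes the G-box and reads the same on both strands, was in 5 of the 9 (PIC1, MFL1, MIT1, MIT2 and FPN3), and in 61.7% of all promoters. The letters alone do not show binding.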

How the data were processed

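Total shoot RNA of 9 samples was made into libraries with the NEBNext Ultra II RNA kit and sequenced. According to the methods, reads were trimmed by the authors with Trimmomatic 0.36.5, mapped them to TAIR10 with HISAT2 2.1.0, quantified transcripts with StringTie 1.3.3.2 and compared conditions with edgeR 3.20.7.2. The deposited values used here are the authors' average log2 CPM per transcript, 1 table for each pair of conditions, each normalised on its own. The tables also hold the authors' fold changes, test statistics and p-values, which were not used. Values per sample were not used here, so no test, SD or interval is given. Which values edgeR was given is not stated.

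Each table's lowest level was removed on the linear scale, each average was read as the mean of 2 conditions, and the level of each condition was solved from the 3 tables. Solved levels below 0 were set to 0; 451 transcripts of 55442 lay below -0.05 CPM in Fe resupply, 1 in +Fe and 0 in -Fe. Transcripts were summed per locus. Ratios had 0.5 CPM added, and genes with a mean of at least 1 CPM were compared at 1.5-fold. The arithmetic of the solve was tested on simulated data, which does not test whether the authors' averages weight both conditions alike. The members and all lists were chosen by role, with earlier results of these data known, and every member is reported. Gene positions, transcript models and sequence came from the RefSeq annotation of TAIR10.1; the tables hold no coordinates. A planned comparison of protein sequences was not made. Calculations used Python 3.11.15, pandas and numpy. Alternatives were another scale for the solve, 2 rescalings, the lowest level kept, the leading transcript alone, other added values, minimum levels and folds.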

Additional observations from a re-analysis of the deposited data

How the results depend on the processing

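For the 7 genes with a level, 139 of 147 alternative log2 ratios lay within 0.1 of the reported one. The other 8 were all of FPN1. The 139 include ratios that could not move. Of these genes, all but FPN1 have 1 annotated transcript, so the leading transcript alone gave their reported ratios by construction. Rescaling the tables to the same total also left every ratio as reported, to the digits shown. For Fe resupply over +Fe the FPN1 ratio was 0.44 when solved on the log2 scale, which leaves out transcripts under 1 CPM. With FPN1.2 alone it was -1.73. For -Fe over Fe resupply it was -0.86 and 1.42 under the same settings, opposite in sign and both past 1.5-fold. With the lowest level kept in, FPN1 was at -0.21 for -Fe over +Fe, -0.15 for Fe resupply over +Fe and -0.06 for -Fe over Fe resupply. MIT2, the one gene past 1.5-fold as reported, kept its sign for Fe resupply over +Fe in every alternative run.

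The number of transporters past the line was 1 for -Fe over +Fe at the lower fold tried. For Fe resupply over +Fe it was 2 with the leading transcript alone, 2 with nothing added and 2 at the lower fold, and 0 at 2-fold. For -Fe over Fe resupply it was 1 when solved on the log2 scale, 1 with the leading transcript alone and 1 at the lower fold. With the lowest level kept in, which adds the same amount to each of the 8 transcripts, the intron-retaining share of FPN1 was 50.8% in -Fe, 26.9% in Fe resupply and 55.0% in +Fe shoots, and the percentage of all genes past 1.5-fold was 8.78 in -Fe over +Fe, 6.62 in Fe resupply over +Fe and 9.98 in -Fe over Fe resupply.

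A rescaling of the tables on transcripts found in 1 condition only was chosen after seeing the data. It moved the median of all genes for Fe resupply over +Fe to -0.01, the MIT1 ratio to -0.52 and the MIT2 ratio to -0.59, and turned FPN3 to 0.01. With a minimum of 5 CPM, 11.0%, 8.57% and 13.0% of all genes were past 1.5-fold in -Fe over +Fe, Fe resupply over +Fe and -Fe over Fe resupply. No paired analysis was possible because the tables pool the samples, and no sample could be left out in turn.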
